A study of Mus musculus with 32 samples.

Results

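The genes described here encode the machinery by which macrophages load peptides onto major histocompatibility complex (MHC) class II molecules, and they were H2-Aa, H2-Ab1, H2-Eb1, H2-DMa, H2-DMb1, H2-DMb2, H2-Oa, Cd74 and Ciita. They were chosen by name for that role, with earlier results of these data known, and they are 9 of the 25067 genes in the deposited count table. Each is represented by the transcript with the highest mean count among those of the gene. All 9 passed the filter on low values (mean RPKM over 1 in at least 1 group), although H2-Oa did so only through BMDM-Nur77-KO at 18 h and H2-DMb2 only through BMDM-WT at 18 h. The libraries came from bone marrow-derived macrophages (BMDMs) of male C57Bl6/J mice aged 6 to 12 weeks, either wild type (BMDM-WT) or lacking Nr4a1, the gene of the nuclear receptor Nur77, in the whole body (BMDM-Nur77-KO). The labels give the genotypes as wt and cre. The deletion had been made with Cre recombinase driven by the human cytomegalovirus promoter acting on a loxP-flanked Nr4a1 gene, Cre had then been bred out, and the wild-type mice were littermates. Bone marrow cells of both genotypes were grown for 7 days in medium with 15% L929-conditioned medium, and each genotype was then stimulated with 100 ng/ml lipopolysaccharide (LPS) for 0, 1, 5 or 18 h, in 4 replicates a group and 32 libraries in all. Nothing in the labels or methods ties a replicate to an animal, so the p-values measure the spread between these samples, which may be technical.

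Libraries held between 8742362 and 15780926 counts over the transcripts kept, 1 for each gene. Nr4a1 itself stood at 15.5 to 25.5 CPM (the count relative to the scaled library size) in the 4 BMDM-WT libraries at 0 h and at 4.42 to 6.92 CPM in the 4 of BMDM-Nur77-KO. At 1 h of LPS it stood at 358 to 483 and 146 to 244 CPM, and the counts do not separate the deleted part of the gene from the rest. All 8 macrophage markers were expressed in every group, with group means for Lyz2, which encodes lysozyme, of 4290 to 9870 CPM. Of 8 B cell markers, whose cells also carry class II molecules, 6 stayed under 1 CPM in every group. Cd79b had at most 2.63 CPM and Pax5 1.06 CPM. Of 6 T cell markers 5 stayed under 1 CPM, the exception being Lck, at up to 32.2 CPM. Before LPS the summed B cell markers were 3.1 to 4.73 CPM in BMDM-WT libraries and 1.6 to 3.0 CPM in those without Nur77. The summed T cell markers were 1.06 to 1.59 and 0.25 to 0.914 CPM. At 18 h both sums overlapped between the genotypes. Of single genes tested, 13.4% were lower in BMDM-Nur77-KO before LPS with no overlap. The single B cell marker tested was called lower without Nur77 before LPS (-0.98 on the log2 scale), as were 6.65% of all genes. The single T cell marker tested was not called. Their part in the class II values was not tested. The library of BMDM-Nur77-KO replicate 1 at 5 h stood apart from its group for several of the genes, so changes at 5 h in that genotype are also given without it. In bulk libraries, fewer cells that carry a transcript and less of it per cell cannot be told apart.

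MHC class II molecules are pairs of an alpha and a beta chain that display peptides from the endosomes to CD4+ T cells. In mice with the b haplotype, such as this strain, H2-Aa and H2-Ab1 encode the chains of the I-A molecule, while H2-Eb1 encodes a beta chain whose alpha partner is not made. The invariant chain Cd74 guards the groove of a new class II molecule on its way to the endosomes, the H2-DM chains exchange its last fragment for a peptide, and the H2-O chains restrain H2-DM. Ciita, the class II transactivator, does not bind DNA itself but docks on the RFX, CREB and NF-Y proteins at the promoters of these genes, and its level is known to set theirs. Macrophages hold little class II at rest and raise it in response to interferon-gamma.

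Compared per length of transcript, in RPKM (here CPM per kilobase of transcript), Cd74 was the most abundant of the 9 transcripts in each group, with means from 129 RPKM in BMDM-Nur77-KO at 0 h to 271 RPKM at 18 h. H2-Aa followed at 36.0 to 81.6 RPKM, then H2-Ab1 at 18.8 to 66.7 RPKM, and next H2-Eb1 and H2-DMb1, which changed places between groups. H2-DMa had 7.58 to 19.0 RPKM. Ciita, H2-DMb2 and H2-Oa stood lowest, with Ciita between 0.695 and 3.09 RPKM. Summed, the 9 genes took 506.2 ± 82.8 CPM of the raw library totals (SD, n = 4) before LPS and 539.1 ± 54.2 CPM after 18 h in BMDM-WT, against 379.4 ± 64.1 and 635.9 ± 106 CPM in BMDM-Nur77-KO. After 5 h the sums were 470.8 ± 45.7 CPM in BMDM-WT and 410.0 ± 114 CPM in BMDM-Nur77-KO. On raw totals the sum in BMDM-WT was thus not higher at 5 h than at 0 h. The 5 h rises given below are measured against scaled library sizes and may depend on the scaling.

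Ciita showed the clearest difference between the genotypes. Its gene lies on chromosome 16 of mm10 from 10480014 to 10531064 (NM_001302619). In BMDM-WT its 4 libraries held 4.09, 3.02, 3.30 and 5.78 CPM at 0 h, 4.61, 4.28, 3.87 and 3.66 CPM at 1 h, 9.09, 9.59, 12.3 and 9.22 CPM at 5 h and 4.37, 4.44, 3.93 and 4.97 CPM at 18 h. The 5 h libraries were thus above all other wild-type libraries, and those at 18 h were back in the range seen before LPS. In BMDM-Nur77-KO the libraries held 2.89, 3.25, 2.59 and 3.38 CPM at 0 h, 5.16, 2.99, 8.28 and 3.38 CPM at 1 h, 11.0, 11.9, 15.6 and 14.1 CPM at 5 h and 10.8, 15.2, 17.7 and 10.2 CPM at 18 h. Here the 18 h libraries spread to both sides of the 5 h libraries, with 2 below and 1 above all of them, and each 18 h library exceeded each wild-type library at 18 h.

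In tests on the same counts, LPS raised Ciita at 5 h in both genotypes, by a log2 fold change of 1.32 (standard error 0.24, edgeR adjusted p = 1.1e-05) in BMDM-WT and 2.11 (standard error 0.24, edgeR adjusted p = 3.6e-09) in BMDM-Nur77-KO. From 5 to 18 h it fell by 1.18 on the log2 scale in BMDM-WT (standard error 0.24, edgeR adjusted p = 7.2e-05), whereas the fitted change in BMDM-Nur77-KO was 0.04 (standard error 0.21, edgeR adjusted p = 0.88). At 18 h the genotypes differed 3.04-fold, with BMDM-Nur77-KO higher by a log2 fold change of 1.61 (standard error 0.23, edgeR adjusted p = 3.1e-06). Over all alternatives, including the removal of each library in turn, that value ran from 1.44 to 1.72 and the adjusted p from 3e-10 to 0.00034. At 0, 1 and 5 h the differences were -0.40, 0.26 and 0.39, none past the threshold (edgeR adjusted p = 0.32, 0.70 and 0.19). The table lists 5 transcripts of Ciita whose rows differ by at most 4 counts in any library, so transcripts from its different promoters cannot be told apart.

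**Figure D1:**
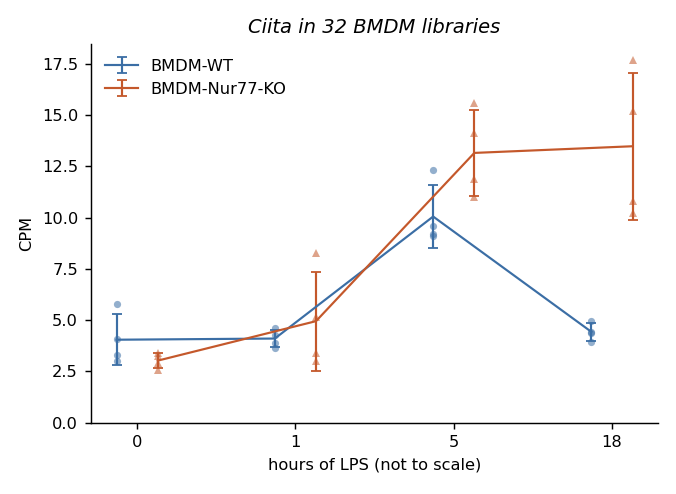
Ciita in CPM (vertical axis) at each time of LPS (horizontal axis, hours, not to scale), with 1 point a library, lines through the group means and bars for the SD of 4 replicates. BMDM-WT peaks at 5 h and is back at 4.43 CPM at 18 h, whereas BMDM-Nur77-KO has 13.1 CPM at 5 h and 13.5 CPM at 18 h.

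Cd74, on chromosome 18 from 60803849 to 60812652 (NM_001042605), varied over a narrower range. Before LPS it had 203, 194, 281 and 254 CPM in BMDM-WT and 155, 190, 163 and 218 CPM in BMDM-Nur77-KO, and the groups overlapped. At 5 h the libraries held 301, 345, 402 and 344 CPM in BMDM-WT and 205, 336, 347 and 351 CPM in BMDM-Nur77-KO. At 18 h they held 271, 292, 259 and 308 CPM in BMDM-WT and 403, 406, 409 and 309 CPM in BMDM-Nur77-KO, so that the lowest knockout library lay just above the highest wild-type one. Of all genes tested, 11.1% were likewise higher in BMDM-Nur77-KO at 18 h with no overlap. In BMDM-Nur77-KO, Cd74 was raised at each time of LPS, by log2 fold changes of 0.71, 0.77 and 1.07 at 1, 5 and 18 h (edgeR adjusted p = 0.0013, 7e-05 and 5.1e-07). In BMDM-WT only the 5 h change passed, at 0.58 (standard error 0.16, edgeR adjusted p = 0.0016), with 0.39 at 1 h and 0.28 at 18 h (edgeR adjusted p = 0.081 and 0.12).

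The genotype difference of Cd74 at 18 h was 0.43 on the log2 scale (standard error 0.16, edgeR adjusted p = 0.045), close to the threshold. It lost the call when any library but replicate 4 of BMDM-Nur77-KO at 18 h was removed, with adjusted p between 0.060 and 0.10. The long transcript of Cd74 differs from the short one by an extra exon that encodes a protease inhibitor domain. Counts on that exon made up 4.93 to 6.00% of those on the long transcript in the means of the 8 groups, with BMDM-WT at 5.51 to 6.00% and BMDM-Nur77-KO at 4.93 to 5.36%. The libraries of the genotypes overlapped at each time, at 18 h with 4.74 to 6.44% in BMDM-WT and 4.62 to 6.07% in BMDM-Nur77-KO. The difference was not tested.

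The genes of the classical chains lie side by side on chromosome 17, with H2-Ab1 from 34263227 to 34269418, H2-Aa from 34282744 to 34287823 and H2-Eb1 from 34305867 to 34316674. In BMDM-WT, H2-Ab1 rose from 29.1, 29.8, 43.8 and 36.0 CPM at 0 h to 65.0, 65.2, 58.9 and 72.4 CPM at 18 h (log2 fold change 0.92, standard error 0.16, edgeR adjusted p = 1.1e-05). In BMDM-Nur77-KO it rose from 19.5, 24.0, 18.1 and 29.2 CPM to 85.2, 84.0, 88.8 and 65.5 CPM (log2 fold change 1.83, standard error 0.17, edgeR adjusted p = 3.6e-11). The knockout libraries thus started lower, with an overlap of 1 library with the wild type, and ended with 3 of 4 above all wild-type libraries. H2-Ab1 was the single member past the threshold between the genotypes before LPS, lower in BMDM-Nur77-KO by a log2 fold change of -0.60 (standard error 0.17, edgeR adjusted p = 0.015). Without replicate 1 or 3 of BMDM-Nur77-KO or replicate 3 of BMDM-WT at 0 h it no longer passed (edgeR adjusted p = 0.065, 0.077 and 0.087).

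H2-Aa held 48.6, 43.1, 72.7 and 55.9 CPM in BMDM-WT at 0 h and 66.8, 72.2, 69.3 and 79.2 CPM at 18 h. In BMDM-Nur77-KO it went from 32.8, 40.8, 38.8 and 49.8 CPM to 97.3, 100, 93.6 and 76.8 CPM. The rise at 18 h was 0.39 on the log2 scale in BMDM-WT, where the libraries of the times overlapped (standard error 0.16, edgeR adjusted p = 0.030), and 1.18 in BMDM-Nur77-KO, where they did not (standard error 0.16, edgeR adjusted p = 9.6e-08). In BMDM-WT the call was lost on removing replicate 1 or 2 at 0 h or replicate 2 or 4 at 18 h, with adjusted p of 0.089, 0.13, 0.050 and 0.077. H2-Eb1 had 35.1, 28.4, 48.1 and 39.7 CPM in BMDM-WT at 0 h and 40.6, 49.9, 42.3 and 49.6 CPM at 18 h, a log2 fold change of 0.27 that did not pass (standard error 0.21, edgeR adjusted p = 0.27). Its 4 libraries of BMDM-Nur77-KO had 23.9, 23.9, 23.5 and 31.8 CPM at 0 h and 61.8, 62.9, 60.1 and 40.7 CPM at 18 h, a rise of 1.13 (standard error 0.22, edgeR adjusted p = 3.2e-05). At 5 h, H2-Eb1 had 39.2, 49.8 and 47.9 CPM in replicates 2 to 4 of BMDM-Nur77-KO and 16.2 CPM in replicate 1. The change of H2-Eb1 from 5 to 18 h in BMDM-Nur77-KO, 0.55 with all libraries (standard error 0.21, edgeR adjusted p = 0.023), was 0.31 without that replicate (edgeR adjusted p = 0.11). Removing replicate 1, 2 or 3 at 18 h also took it over the threshold, to adjusted p of 0.056, 0.060 and 0.051.

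**Figure D2:**
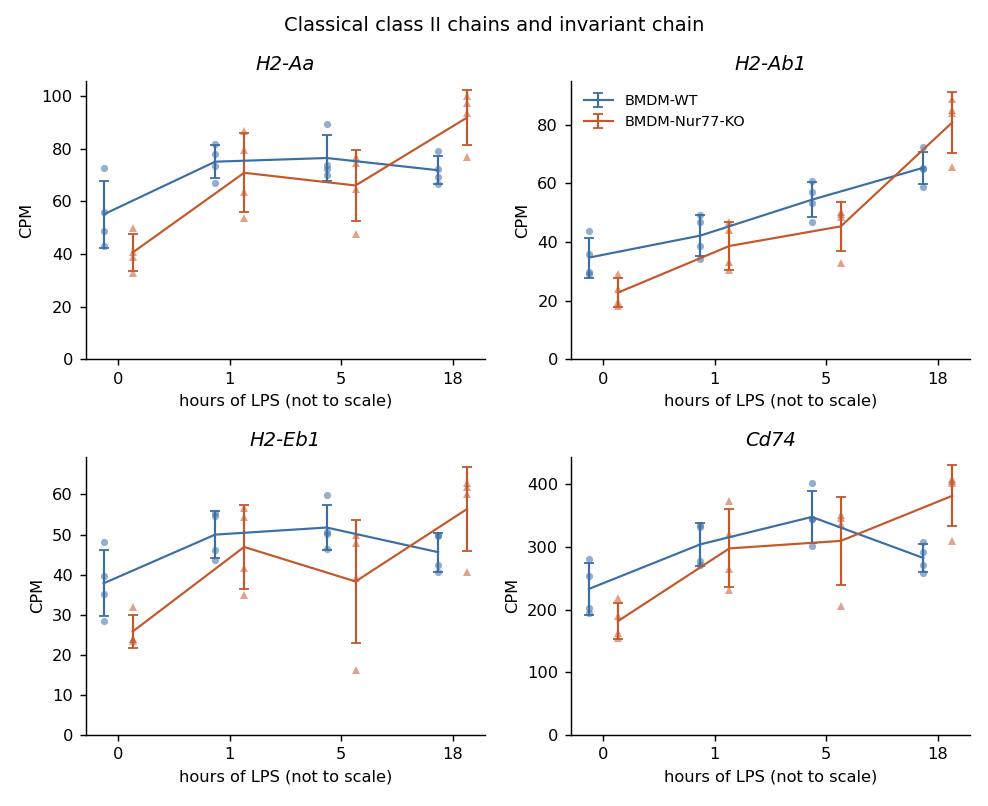
CPM of H2-Aa, H2-Ab1, H2-Eb1 and Cd74 (vertical axes) against hours of LPS (horizontal axes, not to scale), 1 point a library, with group means joined by lines and bars for the SD of 4 replicates. In each panel the mean of BMDM-Nur77-KO is below that of BMDM-WT at 0 h and above it at 18 h.

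The proximal promoters of the class II genes are shown because their known control runs through short shared boxes. RefSeq promoter windows of 300 bases on GRCm38.p6, from 250 bases before each start to 50 after it, were at hand for 6 of the 9 genes, with 2 windows for H2-DMa, and were not used for H2-Ab1, Cd74 and Ciita. Each sequence below runs 5′ to 3′ on the strand of its gene and holds 55 bases around the first ATTGG, the Y box bound by NF-Y read on that strand. Capitals mark ATTGG and, where the exact letters occur, AGCAAC, a core of the X box bound by RFX.
H2-Aa: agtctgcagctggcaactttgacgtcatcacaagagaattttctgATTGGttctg
H2-Eb1: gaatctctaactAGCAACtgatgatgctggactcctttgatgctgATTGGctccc
H2-DMb1: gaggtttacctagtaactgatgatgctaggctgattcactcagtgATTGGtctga
H2-DMb2: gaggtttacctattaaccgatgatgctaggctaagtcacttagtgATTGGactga
H2-Oa: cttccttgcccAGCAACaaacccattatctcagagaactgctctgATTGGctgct
H2-DMa: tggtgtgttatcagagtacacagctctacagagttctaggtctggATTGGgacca
They lie at chr17:34287862-34287916 on the minus strand for H2-Aa and, on the plus strand, at chr17:34305763-34305817 for H2-Eb1, chr17:34153085-34153139 for H2-DMb1, chr17:34145114-34145168 for H2-DMb2, chr17:34092291-34092345 for H2-Oa and chr17:34125275-34125329 for the second H2-DMa start. The ATTGG began 43 to 90 bases before the start in H2-Oa, H2-Aa, H2-Eb1, H2-DMb1 and H2-DMb2, and 198 bases before it in H2-DMa, whose other window held none. CCAAT on either strand, which includes ATTGG, is common, with 37.4% of all 32817 promoter windows holding it. AGCAAC followed on the same strand by ATTGG starting 15 to 35 bases after it was found in H2-Eb1 and H2-Oa and in 0.350% of all windows. AGCAAC on either strand alone occurs in 14.8% of windows, and among the members it was again in H2-Eb1 and H2-Oa. ACAGATG on either strand, another stretch of the X box, occurs in 5.02% of windows and was found in those of H2-Aa and H2-Oa, outside the bases printed. The stretches of H2-DMb1 and H2-DMb2 shared 49 of 55 bases. These are matches of letters, and no binding was measured here.

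Both H2-DM chains rose late. H2-DMb1, on chromosome 17 from 34153191 to 34160229, had 26.8, 23.9, 29.0 and 25.3 CPM in BMDM-WT at 0 h, 29.7, 34.8, 35.8 and 32.8 CPM at 5 h and 55.4, 61.9, 53.0 and 62.9 CPM at 18 h. In BMDM-Nur77-KO it had 21.2, 21.4, 23.0 and 27.2 CPM at 0 h, 15.3, 29.2, 35.9 and 34.1 CPM at 5 h and 68.3, 65.6, 59.7 and 46.5 CPM at 18 h. The 18 h libraries stood above all others of the same genotype. Its LPS change at 18 h was 1.15 in BMDM-WT and 1.37 in BMDM-Nur77-KO on the log2 scale (standard error 0.16 in each, edgeR adjusted p = 2.7e-07 and 1.1e-08), most of it between 5 and 18 h (0.81 and 1.06). The genotypes differed by 0.04 at 18 h (standard error 0.16, edgeR adjusted p = 0.89). Leaving out the 5 h library of replicate 1, the change of H2-DMb1 from 0 to 5 h in BMDM-Nur77-KO went from 0.31 (edgeR adjusted p = 0.10) to 0.51 (edgeR adjusted p = 0.00092).

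H2-DMa (from 34119693 to 34139101, NM_001360530) encodes the alpha partner. It had 15.9, 14.4, 24.5 and 19.4 CPM at 0 h and 32.7, 29.5, 26.7 and 37.1 CPM at 18 h in BMDM-WT. The libraries of BMDM-Nur77-KO had 12.1, 10.0, 12.5 and 15.6 CPM at 0 h and 31.4, 32.3, 29.0 and 16.2 CPM at 18 h, where replicate 4 stood well below the other 3. LPS raised it by 0.77 at 18 h in BMDM-WT and 1.12 in BMDM-Nur77-KO on the log2 scale (standard error 0.22 in each, edgeR adjusted p = 0.0025 and 5.7e-05), and at 1 and 5 h it did not pass the test in either genotype. H2-DMb2 (from 34143229 to 34151553) is a close copy of H2-DMb1, and the levels of both are uncertain, since a mapping quality filter can drop reads that fit both copies and how many it dropped was not measured. H2-DMb2 held 0.677 to 1.44 CPM at 0 h and 1.31 to 1.64 CPM at 18 h in BMDM-WT, and 0.181 to 0.786 CPM and 0.656 to 1.52 CPM in BMDM-Nur77-KO, at most 19 counts a library. From 5 to 18 h it rose in both genotypes, by 1.50 (standard error 0.39, edgeR adjusted p = 0.0012) and 1.34 (standard error 0.42, edgeR adjusted p = 0.0061). H2-DMb2 passed the filter through an 18 h group, in which it is high. In the fit with no filter on low values the edgeR adjusted p was 0.0019 and 0.009.

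H2-Oa, the alpha chain of H2-O (from 34092379 to 34095234), was near absent before 18 h. Its counts in BMDM-WT, rounded to whole numbers, were 2, 2, 1 and 3 before LPS, 1, 1, 2 and 2 after 1 h and 0, 0, 0 and 4 after 5 h. At 18 h they were 4, 13, 11 and 12 in BMDM-WT and 24, 16, 29 and 19 in BMDM-Nur77-KO, whose libraries had held at most 3 counts at any earlier time. Pooled over the 4 libraries, the level at 18 h was 0.895 CPM (exact 95% Poisson interval 0.640 to 1.22) in BMDM-WT and 1.80 CPM (1.45 to 2.22) in BMDM-Nur77-KO. Against 0 h, with 8 and 5 counts in all, these were 6.67 times (exact 95% interval 3.08 to 16.5) and 19.1 times (7.87 to 60.2) as high. The intervals cover counting error only. H2-Oa entered the tested genes through BMDM-Nur77-KO at 18 h, where it is high, so its rise was read from the fit with no filter on low values. There it passed edgeR's quasi-likelihood test in both genotypes (adjusted p = 0.00032 and 1.7e-07). The difference between genotypes at 18 h, 2.01 times in pooled counts (1.37 to 3.00), did not pass (edgeR adjusted p = 0.063, and 0.12 with no filter). The libraries of the genotypes did not overlap, as held at 18 h, with BMDM-Nur77-KO higher, for 11.1% of all genes tested. Of the further class II chains, H2-Ob, the beta partner, had at most 12 counts and H2-Eb2 at most 4 counts in any library, so neither passed the filter.

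**Figure D3:**
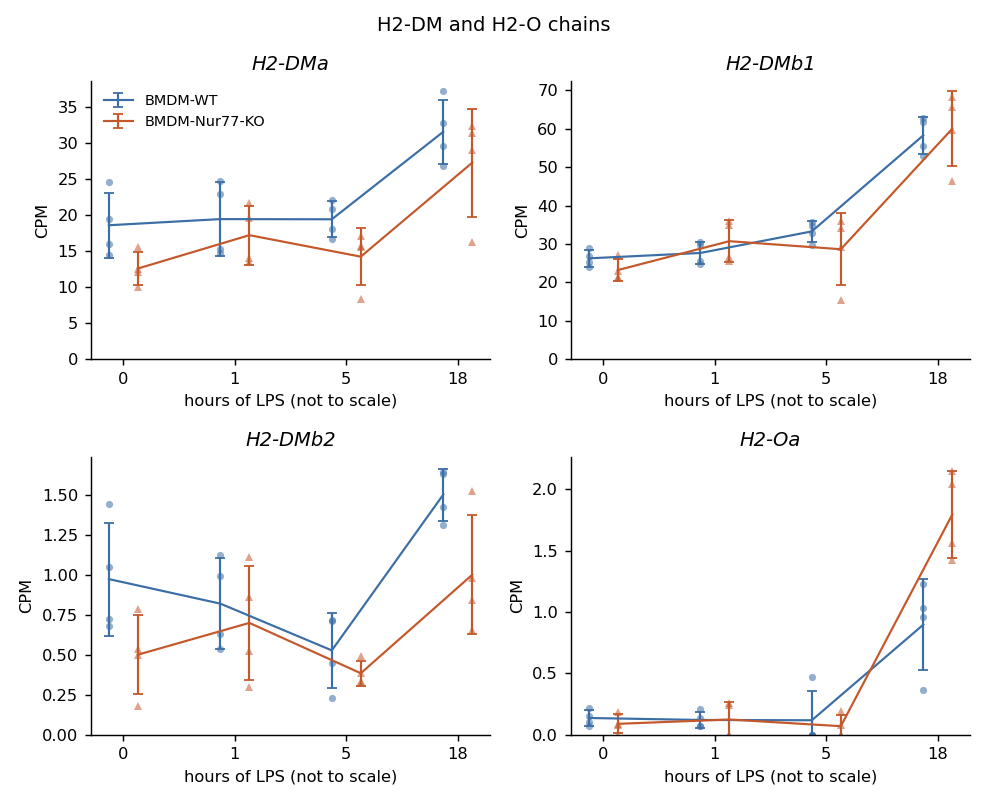
CPM of H2-DMa, H2-DMb1, H2-DMb2 and H2-Oa (vertical axes) against hours of LPS (horizontal axes, not to scale), 1 point a library, with group means joined by lines and bars for the SD of 4 replicates, drawn from 0 up. All 4 transcripts have their highest mean at 18 h in both genotypes, and H2-Oa is at or under 0.473 CPM in each library before that.

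Counted over the 9 genes, LPS in BMDM-WT raised 1 gene at 1 h (H2-Aa), 4 at 5 h (Ciita, Cd74, H2-Aa and H2-Ab1) and 5 at 18 h (H2-Aa, H2-Ab1, H2-DMa, H2-DMb1 and H2-Oa), and lowered none. Among all 11187 genes tested, 10.4%, 30.8% and 32.9% were higher at these times and 9.81%, 39.1% and 33.6% lower. In BMDM-Nur77-KO it raised 4 at 1 h (Cd74, H2-Aa, H2-Ab1 and H2-Eb1), 5 at 5 h, with Ciita added, and 9 at 18 h, against 7.12%, 33.1% and 34.7% of all genes, and again lowered none (5.08%, 38.2% and 34.6% of all genes). Since H2-Oa and H2-DMb2 were kept by the filter through an 18 h group alone, the 18 h counts are not set evenly against all genes. Over the other 7 they were 4 in BMDM-WT and 7 in BMDM-Nur77-KO. The call of H2-Aa at 1 h in BMDM-WT, 0.45 on the log2 scale (edgeR adjusted p = 0.038), was lost on removing any of replicates 1, 2 and 4 at 0 h or 1, 2 and 3 at 1 h (adjusted p from 0.060 to 0.14). That of H2-DMb2 at 18 h in BMDM-Nur77-KO, 0.94 (edgeR adjusted p = 0.028), was lost without replicate 1 or 2 at 0 h or replicate 1 at 18 h (adjusted p 0.097, 0.054 and 0.14). That of H2-Eb1 at 5 h in BMDM-Nur77-KO, 0.58 (edgeR adjusted p = 0.020), was lost without replicate 3 at 0 h or replicate 3 or 4 at 5 h (adjusted p 0.051, 0.097 and 0.081) and in a fit to only the libraries compared (0.091). The median log2 fold change at 18 h over the 7 was 0.39 in BMDM-WT and 1.18 in BMDM-Nur77-KO, where the median of all genes tested was 0.00 in each. From 5 to 18 h, 4 genes rose and Ciita fell in BMDM-WT (35.6% of all genes rose and 33.9% fell), while 7 rose and none fell in BMDM-Nur77-KO (35.2% and 34.1%). The 4 in BMDM-WT were H2-DMa, H2-DMb1, H2-DMb2 and H2-Oa, and the 2 that did not pass in BMDM-Nur77-KO were Cd74 and Ciita. Over the 7 without H2-DMb2 and H2-Oa, 2 rose in BMDM-WT and 5 in BMDM-Nur77-KO.

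Without the library that stood apart, BMDM-Nur77-KO replicate 1 at 5 h, the 5 h changes in that genotype were larger. They were 0.93 for Cd74 (0.77 with it), 1.12 for H2-Ab1 (1.00), 0.83 for H2-Aa (0.70) and 0.82 for H2-Eb1 (0.58) on the log2 scale. The calls of these 4 held (edgeR adjusted p from 4.2e-07 to 8.6e-05). Ciita moved little, from 2.11 to 2.18. From 5 to 18 h the rises of H2-Ab1 and H2-Aa without that library were 0.71 and 0.35 (edgeR adjusted p = 0.00024 and 0.041).

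Between the genotypes before LPS, 1 of the 9 genes was called, H2-Ab1, lower without Nur77, as were 6.65% of all genes, and none was higher (5.88% of all genes). After 18 h of LPS, Ciita and Cd74 were higher without Nur77 (2 of 9, against 12.3% of all genes), and none was lower (9.44%). None of the 9 passed at 1 h or 5 h, where edgeR's quasi-likelihood test called 3.44% and 13.2% of all genes higher and 3.03% and 10.6% lower, and none had an unadjusted p under 0.05 or was called by DESeq2. At 0 h, 6 of the 9 had an unadjusted p under 0.05, as did 27.0% of all genes, and all 9 fitted differences were below 0, with a median of -0.47 against -0.03 over all genes. With a log2 fold change over 1 required as well, Ciita was the single gene higher at 18 h, where 2.57% of all genes were.

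The LPS effect itself differed between the genotypes at 18 h for 4 of the 9 genes, each with the larger rise in BMDM-Nur77-KO, where 5.73% of all genes had such a call in that direction. The difference of the effects was 2.01 for Ciita (standard error 0.34, edgeR adjusted p = 0.00014), 0.91 for H2-Ab1 (standard error 0.23, edgeR adjusted p = 0.0081) and 0.79 for both Cd74 and H2-Aa (standard error 0.22, edgeR adjusted p = 0.018 in each) on the log2 scale. Part of each is the lower level in BMDM-Nur77-KO at 0 h, which was -0.40, -0.60, -0.36 and -0.44 for Ciita, H2-Ab1, Cd74 and H2-Aa. Without replicate 3 of BMDM-WT at 0 h the values for Cd74 and H2-Aa were 0.69 and 0.63 and no longer passed (edgeR adjusted p = 0.054 and 0.065). H2-Eb1 had 0.86 (standard error 0.30, edgeR adjusted p = 0.074), and it passed on removal of the BMDM-Nur77-KO replicate 4 at 18 h or at 0 h, or of the BMDM-WT replicate 2 at 0 h (adjusted p 0.030, 0.048 and 0.044). For H2-DMa, H2-DMb1, H2-DMb2 and H2-Oa the difference did not pass (edgeR adjusted p from 0.46 to 0.83). At 1 h and 5 h edgeR's quasi-likelihood test called no difference for the 9 genes, where 0 and 1 had an unadjusted p under 0.05 and DESeq2 also called none. Of all genes, 0.0447% and 1.81% had a larger effect in BMDM-Nur77-KO at these times, 0.0179% and 1.33% a smaller one, and 3.73% a smaller one at 18 h.

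Some dendritic cell genes moved with the 18 h result. Summed over 8 such markers, the level was 7.46 to 9.44 CPM in BMDM-WT and 20.4 to 25.4 CPM in BMDM-Nur77-KO at 18 h, against 1.73 to 2.12 and 1.63 to 2.89 CPM at 0 h, and 14.9 to 20.5 and 13.5 to 27.1 CPM at 5 h. Of the 8, the 3 that were tested (Clec9a, Xcr1 and Ccr7) were all higher in BMDM-Nur77-KO at 18 h, against 12.3% of all genes. Clec9a had 12.2 ± 2.90 against 3.51 ± 0.71 CPM (SD, n = 4). The rest failed the filter on low values, which keeps genes that are high in some group, so the 3 are not set evenly against all genes. The defining markers Zbtb46 and Flt3 had group means of at most 0.778 and 0.134 CPM, Cd209a 0.160 CPM, and Flt3 had no count in 18 of 32 libraries. Their part in the class II values was not tested. The summed macrophage markers at 18 h were 14100 to 14600 CPM in BMDM-WT and 11100 to 12700 CPM in BMDM-Nur77-KO. Lyz2, the most abundant of the 8, weighs most in these sums. Of the 8, 4 were called lower in BMDM-Nur77-KO at 18 h, 1 higher and 3 not called, against 9.44% of all genes lower and 12.3% higher.

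**Figure D4:**
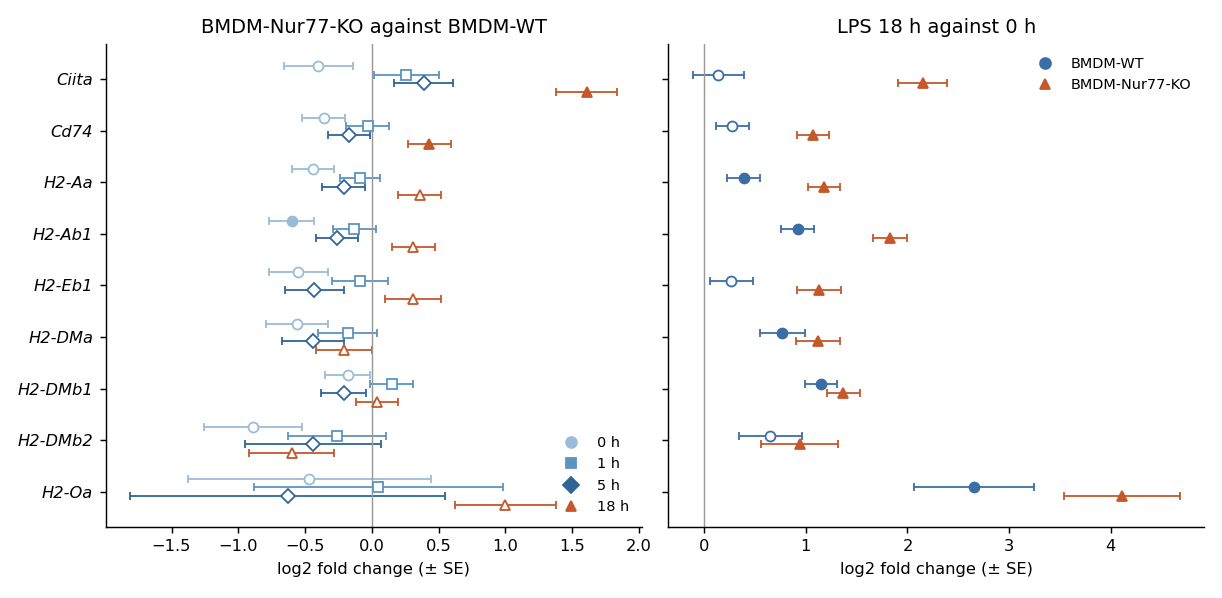
Log2 fold changes with standard errors (horizontal axes) for the 9 genes (rows), at left BMDM-Nur77-KO against BMDM-WT at 0, 1, 5 and 18 h and at right LPS 18 h against 0 h in each genotype. Filled symbols have an adjusted p under 0.05, and the symbols of Ciita at 18 h (1.61 between the genotypes, 2.15 for LPS in BMDM-Nur77-KO) stand far from those in BMDM-WT (0.14).

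The genes did not change in fixed proportion. The ratio of Cd74 to H2-Ab1 in RPKM was 5.80 (range 5.52 to 6.07) in BMDM-WT and 6.95 (6.41 to 7.75) in BMDM-Nur77-KO at 0 h. At 18 h it was 3.72 (3.59 to 3.85) and 4.06 (3.96 to 4.15), with no overlap between the times in either genotype or between the genotypes at 18 h. H2-Aa relative to H2-Ab1 went from 1.70 (1.55 to 1.80) to 1.18 (1.10 to 1.26) in BMDM-WT and from 1.94 (1.81 to 2.30) to 1.23 (1.13 to 1.28) in BMDM-Nur77-KO. H2-Eb1 relative to H2-Ab1 went from 0.792 (0.693 to 0.877) to 0.507 (0.454 to 0.556) and from 0.835 (0.722 to 0.940) to 0.503 (0.451 to 0.544). Relative to the other classical chains and to Cd74, H2-Ab1 thus gained in both genotypes. H2-Oa against H2-DMa was 0.0444 (0.0170 to 0.0635) in BMDM-WT and 0.106 (0.0670 to 0.146) in BMDM-Nur77-KO at 18 h, so H2-Oa stayed far under the chain it would restrain. The ratio of H2-DMb2 to H2-DMb1 did not exceed 0.0529 in any library.

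**Figure D5:**
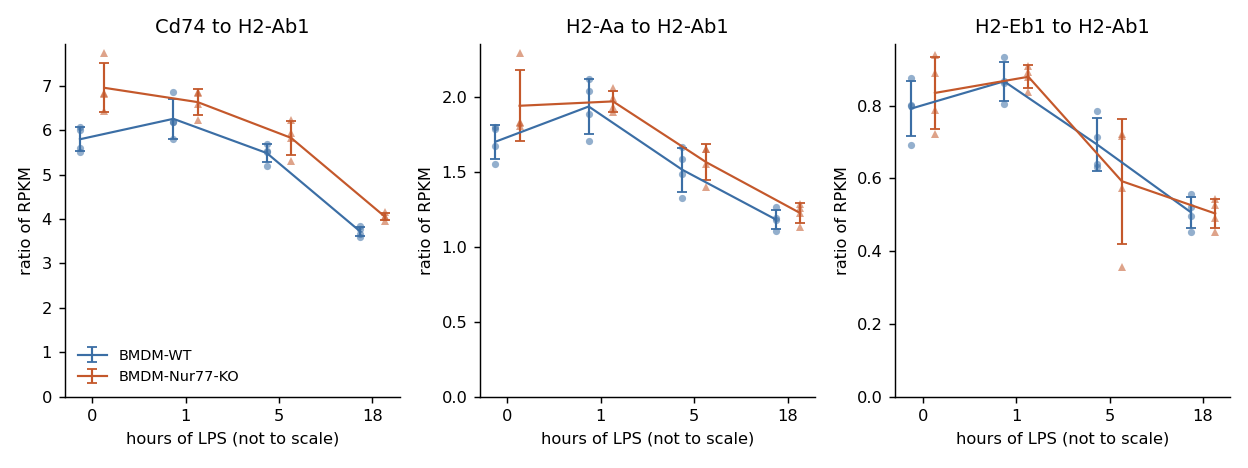
Ratio of RPKM (vertical axes) of Cd74, H2-Aa and H2-Eb1 to H2-Ab1 against hours of LPS (horizontal axes, not to scale), 1 point a library, with group means joined by lines and bars for the SD of 4 replicates. All 3 ratios are lower at 18 h than at 0 h in both genotypes, and the low point at 5 h in the third panel, 0.357, is BMDM-Nur77-KO replicate 1.

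Across the 32 libraries, the log2 CPM of Cd74 and H2-Aa had a Pearson r of 0.96, those of H2-Aa and H2-Eb1 0.92, and those of Ciita and H2-DMb2 -0.10. The libraries share genotypes and times, so these values describe the set and are not tests. Outside the 9 genes, the transcripts most like Ciita by this measure were Il12a (0.919), Lap3 (0.895), Pwp1 (0.892), Rhoh (0.889) and Crtc2 (0.888), and those most like Cd74 were Cyth2 (0.865), Il10ra (0.845), Relb (0.844), Arl5c (0.844) and Tgm2 (0.841).

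Of 15 genes known to act upstream of Ciita, all tested, 11 were higher and 3 lower at 18 h in BMDM-WT, where 32.9% and 33.6% of all genes were. Between the genotypes at 18 h, 6 of the 15 were higher in BMDM-Nur77-KO and 1 lower, against 12.3% and 9.44% of all genes. Socs1, a feedback inhibitor of interferon-gamma signalling, had 67.6 ± 6.89 CPM at 5 h and 21.1 ± 3.94 CPM at 18 h in BMDM-WT and 39.2 ± 23.1 and 40.9 ± 18.9 CPM in BMDM-Nur77-KO (SD, n = 4), higher at 18 h in BMDM-Nur77-KO by 0.96 (standard error 0.31, edgeR adjusted p = 0.026). Ifng, the gene of interferon-gamma itself, had 0 or 1 count in each library at 0 h, 6 to 10 in BMDM-WT and 3 to 12 in BMDM-Nur77-KO at 5 h, and 7 to 15 and 11 to 33 at 18 h.

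Irf1, chosen after its values were seen because it binds the Ciita promoter, had 1050 ± 27.4 CPM at 5 h and 424 ± 26.5 CPM at 18 h in BMDM-WT, and 1170 ± 125 and 706 ± 35.3 CPM in BMDM-Nur77-KO (SD, n = 4). Between the genotypes at 18 h it differed by 0.73 (standard error 0.09, edgeR adjusted p = 3.6e-07), and the LPS effect at 18 h differed by 1.55 (standard error 0.13, edgeR adjusted p = 1.7e-09). Since 1.55 exceeds 0.73, Irf1 began from a lower fitted level without Nur77 before LPS. That lower start makes up part of the 1.55.

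Of 7 genes that encode the proteins on which Ciita docks, edgeR's quasi-likelihood test called 0 between the genotypes at 18 h, against 12.3% of all genes higher and 9.44% lower. An unadjusted p under 0.05 was found for 1 of the 7, Rfx5. Rfx5, a subunit of RFX, was the single gene of the 7 raised by LPS at 18 h in BMDM-WT, from 14.5 ± 1.07 to 25.1 ± 1.70 CPM (SD, n = 4, log2 fold change 0.80, edgeR adjusted p = 1.9e-07). It reached 30.5 ± 1.24 CPM in BMDM-Nur77-KO at 18 h, where the difference did not pass (edgeR adjusted p = 0.059). Its libraries did not overlap those of BMDM-WT, as was so for 11.1% of all genes higher in BMDM-Nur77-KO. Of 8 genes that process antigen or turn class II over, 3 were higher and 2 lower at 18 h in BMDM-WT, and between the genotypes at 18 h 1 was higher without Nur77 and 1 lower, shares near the 32.9% and 33.6%, and the 12.3% and 9.44%, of all genes. Ifi30, the thiol reductase that opens disulfide bonds of antigens, was higher in BMDM-Nur77-KO at each time, with 88.9 ± 7.23 against 57.4 ± 3.86 CPM at 0 h and 98.3 ± 2.50 against 51.7 ± 4.30 CPM at 18 h (SD, n = 4, log2 fold changes 0.63 and 0.93). Marchf1, a ubiquitin ligase that removes class II from the surface, rose from 62.8 ± 4.40 to 376 ± 119 CPM in BMDM-WT (SD, n = 4, log2 fold change 2.58, edgeR adjusted p = 3.1e-12). At 0 h it was higher in BMDM-Nur77-KO, at 114 ± 15.8 CPM (log2 fold change 0.86), and at 18 h the difference did not pass (0.30, edgeR adjusted p = 0.30). The protease Ctsl fell by 0.54 on the log2 scale in BMDM-WT at 18 h (standard error 0.09, edgeR adjusted p = 2.5e-06).

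Genes that lie among the class II genes on chromosome 17 but serve class I or other roles also rose with LPS. All 5 neighbours passed at 18 h in BMDM-WT (32.9% of all genes were higher), with log2 fold changes of 3.24 for Tap1, 2.65 for Psmb9 and 2.55 for Tap2, subunits of the peptide transporter and of the immunoproteasome. Between the genotypes at 18 h, 2 of the 5 were higher in BMDM-Nur77-KO, against 12.3% of all genes. For 4 of the 5 the LPS effect at 18 h was called larger without Nur77, with a median difference of 0.85 against 0.79 over the class II genes. The same call was made for 2 of 5 genes in a class I set and for 5.73% of all genes. Part of the larger effect in the neighbours is a lower start. At 0 h their median genotype difference was -0.43, with 2 of 5 called lower in BMDM-Nur77-KO (6.65% of all genes), and at 18 h it was 0.27. In the class I set these medians were -0.21 and 0.16. The class I set, also 5 of 5 higher with LPS at 18 h in BMDM-WT, had 1 higher in BMDM-Nur77-KO at 18 h (12.3% of all genes). That was Nlrc5, the class I counterpart of Ciita, which fell from 511 ± 26.9 CPM at 5 h to 276 ± 27.0 CPM at 18 h in BMDM-WT and had 400 ± 52.6 and 370 ± 48.2 CPM in BMDM-Nur77-KO (SD, n = 4, genotype difference at 18 h 0.42, standard error 0.12, edgeR adjusted p = 0.009). H2-K1 and Tapbp, a class I heavy chain and the tapasin of the loading complex, rose by 2.32 and 2.35 in BMDM-WT and differed by 0.08 and 0.16 between the genotypes at 18 h.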

How the data were processed

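The authors deposited 1 table of raw counts per RefSeq transcript for the 32 libraries, made from strand-specific paired-end reads aligned to mm10 with HISAT2 2.1.0 and counted over exons with HOMER after a mapping quality filter with SAMtools 1.16.1 (CASAVA 1.8.2 is also named in the submitters' processing notes). The values deposited by the authors are estimated counts in multiples of 0.5 (28.6% were not whole), and they were rounded to whole counts here. Of 42361 transcripts, 42198 were named from RefSeq, 70 from GENCODE and 93 stayed unnamed and were left out of tests (0.233 to 1.37% of counts).

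The transcript with the highest mean count stood for each gene. The 11187 genes whose group mean exceeded 1 RPKM somewhere were tested with edgeR 4.0.16 (quasi-likelihood test, R 4.3.3), fitting the 8 group means jointly with TMM scaling, with Benjamini-Hochberg adjustment over all genes tested and called at an adjusted p under 0.05. CPM and RPKM use TMM-scaled library sizes, and the correlations and likeness use log2 CPM with a prior count of 2. Median depth was 11847140 counts. On data simulated for the 18 h genotype comparison (11187 genes), 58.0% of 100 genes changed by 0.58 and 88.0% of 100 changed by 1 on the log2 scale were recovered. The changed genes were drawn from those over a minimum mean count, which H2-Oa and H2-DMb2 did not reach. These shares therefore do not cover H2-Oa and H2-DMb2.

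The genes and lists were chosen with earlier results of these data known. Genes named from the further lists are the 3 of each with the largest change among those called at 18 h between the genotypes or with LPS in BMDM-WT, of which 1 is not reported here. The most alike genes were the 5 with the highest Pearson r, members left out. Alternatives were DESeq2 1.42.0, its size factors, other filters, a fit to the libraries compared, a replicate block, summed transcripts, size limits of 0.58 and 1, and the removal of each library.

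Whether replicate numbers pair the libraries is not known, and the main fit used no pairing. The correlation of same-numbered libraries, as deviations from group means, was over 0.1 in at most 2 of 4 pairs of a comparison. It ran from -0.70 to 0.47, which cannot show whether they were paired.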

Additional observations from a re-analysis of the deposited data

Results flagged for a closer look

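Within groups of 4 libraries, 7 of the 72 sets of CPM values had 1 library far from the others (by Dixon's gap over range at 95%, which chance alone gives in about 1 of 20 sets). In BMDM-Nur77-KO at 5 h, replicate 1 was low for H2-Ab1 (33.0 CPM, against 48.5 to 50.2 in the others) and for Cd74 (205 CPM, against 336 to 351). At 18 h, replicate 4 of the same genotype was low for H2-Eb1 (40.7 CPM, against 60.1 to 62.9) and for Cd74 (309 CPM, against 403 to 409). At 0 h, replicate 4 of BMDM-Nur77-KO was high for H2-Eb1 (31.8 CPM, against 23.5 to 23.9). In BMDM-WT at 5 h, replicate 3 was high for Ciita (12.3 CPM, against 9.09 to 9.59). Replicate 4 held all counts of H2-Oa after rounding (0.473 CPM, with the others at 0, whose deposited values were at most 0.5).

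The effect of LPS at 18 h differed between the genotypes, by edgeR's test of the difference, for Ciita (2.01 on the log2 scale), H2-Ab1 (0.91), Cd74 (0.79) and H2-Aa (0.79), each larger in BMDM-Nur77-KO.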

How the results depend on the processing

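Over the alternatives, no called log2 fold change of the 9 genes changed direction. Of 930 values under settings that kept all libraries of a comparison, 902 stayed on their side of the threshold, 4 lost the call and 24 gained it, and of 1296 with a library removed 32 lost it and 14 gained it. H2-Oa could not be given with all transcripts summed, where it failed the filter.

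Between the genotypes at 0 h, 1 gene was called, 3 with only the libraries compared and 0 with a log2 fold change over 1 added. At 18 h, 2 genes were called, 1 with the replicate block (Cd74, adjusted p = 0.057) and 1 with a limit of 0.58 or of 1. The replicate block changed no other call. For LPS at 1 h in BMDM-WT, 1 gene was called, 2 with DESeq2 or its size factors, 3 with only the libraries compared and 0 with a limit of 0.58 or 1. With a limit of 1, the counts for LPS were 1 of 4 at 5 h and 2 of 5 at 18 h in BMDM-WT, 0 of 4 at 1 h and 1 of 5 at 5 h in BMDM-Nur77-KO, 3 of 5 and 3 of 7 from 5 to 18 h in the 2 genotypes, and 1 of 4 for the difference of the LPS effects at 18 h. At 5 h in BMDM-WT the limit of 0.58 left 2.

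With 1 library removed, the counts ran from 0 to 2 between the genotypes at 0 h, 1 to 2 at 18 h, 0 to 2 for LPS at 1 h in BMDM-WT and 2 to 5 for the difference at 18 h, with 2 without BMDM-WT replicate 3 at 0 h. The causes were not tested. Against edgeR's TMM, DESeq2's size factors moved all genes' log2 fold changes by at most 0.09. On raw library totals, which neither follows, the sum of the 9 genes in BMDM-WT was 506.2 CPM at 0 h and 470.8 CPM at 5 h. Depth limits H2-Oa and H2-DMb2, at up to 29 and 19 counts a library. RPKM in place of CPM changed the rank of 2 of the 9 genes in 5 of the 8 groups.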
